A study of Homo sapiens with 20 samples.

Results

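Antisense-named long non-coding RNA genes that K562 cells express are described here, in cells that lack an exon of NAT10 and in their parental cells. The genes were chosen by name and level. A gene was taken when its symbol ended in -AS and a digit, when the ribosome footprint tables did not list it, and when its mean over the 4 RNA-seq libraries was at least 1 CPM (a gene's count scaled to a common library total). EPB41L4A-AS1 was left out. Of 60616 genes in the RNA-seq tables, 1822 had such a symbol, and 391 met the rule. A further 1429 lay under 1 CPM, and 1 was listed in the footprint tables. The level of a gene was part of the rule, so levels are given as a description and were not tested. Of the 383 genes found in the RefSeq gene table, 381 were classed there as long non-coding RNA.

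An antisense RNA is transcribed from the strand opposite to another gene, its sense gene, after which it is named. Some start beside the sense gene and run away from it, out of one shared promoter region. Others start inside or beyond the sense gene and run across its exons or introns. Such RNAs are known to act on the chromatin of the neighbouring gene, to bind microRNAs or proteins, or to be by-products of an open promoter, and for most the function is not known. K562 is a line from a patient with chronic myeloid leukaemia that carries the BCR-ABL fusion and can take on erythroid or megakaryocytic features. NAT10 is the acetyltransferase that places N4-acetylcytidine (ac4C) on RNA.

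The compared groups were K562 cells with exon 5 of NAT10 removed by CRISPR-Cas9 (knockout) and parental K562 cells (wild type), with no other treatment named. The labels give neither the number of knockout clones nor whether replicate libraries came from different cultures, and p-values then cover only library-to-library spread, possibly technical. RNA-seq and ribosome profiling (Ribo-seq, which sequences the fragments that ribosomes protect) had 2 libraries per genotype. Acetylated RNA immunoprecipitation (acRIP-seq) gave 1 pooled peak list per genotype for the ac4C antibody and 1 for control IgG.

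RNA-seq totals ran from 10388717 to 18778485 counts and Ribo-seq totals from 621287 to 1220308. The spread of the knockout RNA-seq pair exceeded counting noise by 2.99%, while that of the wild type pair was 12.5 times as large as such noise. The knockout pair was therefore summed as 1 sample, set against 2 wild type libraries. NAT10 had 49.9 and 49.3 CPM in knockout against 139 and 144 CPM in wild type (log2 -1.51, SE 0.085, edgeR adjusted p = 0.000102). Erythroid markers did not move together: the globins HBZ, HBA1, HBA2, HBG1 and HBG2 and TAL1 rose, GATA1 fell (log2 -0.42), and KLF1, TFRC, ALAS2 and EPOR did not pass. Summed levels of 5 megakaryocyte markers were 40.6 to 43.0 CPM in knockout against 68.5 to 78.2 in wild type, with GP9 and PF4 at 0 in every library. Those of 6 granulocyte and monocyte markers were 32.2 to 33.9 and 70.5 to 75.9 CPM, those of 5 lymphocyte markers 28.4 to 31.0 and 40 to 42.3 CPM (MS4A1 at 0), and those of 5 fibroblast and epithelial markers 241.5 to 244.7 and 263.3 to 278.4 CPM. Their part in the changes below was not tested. In such bulk samples fewer cells of a type and less RNA per cell cannot be told apart.

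Start-site windows show how an antisense gene and its sense gene can share a promoter. RefSeq (GRCh38.p14) gave windows of 300 bases, 250 before and 50 after the start, for 302 of the 391 genes. Of all 391, 91 started on the opposite strand within 1000 bases of the sense gene's start and ran away from it, at a median distance of 140 bases. These are called divergent pairs. Another 165 overlapped the sense gene on the opposite strand, 12 lay apart from it, 2 were on the same strand, and 121 had no window for one gene of the pair. The 2 starts were close in some overlapping pairs too, such as RAB4A-AS1 at 43 bases. Printed first are the 2 divergent antisense genes that passed the test of expression described below, ZNF232-AS1 (57 bases from the start of ZNF232, chr17:5111685-5111984, plus strand) and EPC1-AS1 (206 bases from the start of EPC1, chr10:32347114-32347413, plus strand). The other 2 belong to pairs in which both genes rose, PRKAR1B-AS1 (the first of its 2 windows, chr7:602595-602894, plus strand) and SAMD4A-AS1 (chr14:54687861-54688160, minus strand). Capitals mark matches to 4 motifs on either strand. The letters GATAA are the core read by factors of the GATA family. A second motif, TATAAA, is the box found at some promoters. The motif CCAAT is the box that factor NF-Y binds, and GGAAG is the core of sites for the ETS family.
ZNF232-AS1: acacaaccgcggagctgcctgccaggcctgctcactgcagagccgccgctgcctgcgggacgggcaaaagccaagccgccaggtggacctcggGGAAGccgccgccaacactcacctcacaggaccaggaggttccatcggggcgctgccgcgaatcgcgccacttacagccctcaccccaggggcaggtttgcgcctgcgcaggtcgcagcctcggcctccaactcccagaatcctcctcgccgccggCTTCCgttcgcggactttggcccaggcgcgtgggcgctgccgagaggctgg
EPC1-AS1: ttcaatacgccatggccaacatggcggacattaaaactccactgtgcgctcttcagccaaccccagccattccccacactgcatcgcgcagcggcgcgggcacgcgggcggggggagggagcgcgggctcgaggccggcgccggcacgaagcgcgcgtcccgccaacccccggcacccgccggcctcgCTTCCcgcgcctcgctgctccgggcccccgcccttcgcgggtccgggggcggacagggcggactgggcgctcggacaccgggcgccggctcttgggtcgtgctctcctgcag
PRKAR1B-AS1: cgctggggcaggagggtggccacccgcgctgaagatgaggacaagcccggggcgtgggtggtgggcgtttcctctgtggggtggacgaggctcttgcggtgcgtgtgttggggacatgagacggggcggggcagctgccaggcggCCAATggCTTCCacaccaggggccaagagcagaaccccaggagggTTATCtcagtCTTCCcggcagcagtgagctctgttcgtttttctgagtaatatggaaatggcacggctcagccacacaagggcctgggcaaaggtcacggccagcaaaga
SAMD4A-AS1: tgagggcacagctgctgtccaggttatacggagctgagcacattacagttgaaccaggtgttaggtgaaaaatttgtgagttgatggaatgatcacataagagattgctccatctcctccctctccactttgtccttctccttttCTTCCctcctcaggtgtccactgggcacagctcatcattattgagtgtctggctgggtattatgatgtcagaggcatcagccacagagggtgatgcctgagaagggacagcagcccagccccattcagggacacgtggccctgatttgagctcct

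Both divergent windows were dense in CG, with 30 CG pairs in ZNF232-AS1 and 42 in EPC1-AS1, against 16 in PRKAR1B-AS1 and 2 in SAMD4A-AS1. Over the 364 windows of the antisense-named genes the median was 25 CG, against 14 over all 35116 windows of 27305 genes, and 30.5 over the windows of divergent pairs. The 4 motifs use different letters and can overlap one another. GATAA was found in 14.3% of the antisense windows and in 22.7% of all windows, TATAAA in 6.04% and 11.5%, CCAAT in 30.8% and 34.6%, and GGAAG in 76.4% and 71.9%. In windows of divergent pairs the share with GATAA was 10.8%. The windows of the sense genes had a median of 24 CG, and GATAA in 17.2%. A match is a run of letters in the window and was not tied to any measured binding.

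Most antisense-named genes were low. Their median level was 4.145 CPM, 224 lay under 5 CPM, 52 reached 20 CPM and 4 reached 100 CPM. CPM is not scaled to transcript length, so the following order is one of reads and not of transcripts. PROSER2-AS1, of which little is known, took most reads, with 280.3 and 282.8 CPM in knockout against 207.6 and 202.7 CPM in wild type. OIP5-AS1, the conserved RNA also called Cyrano that triggers decay of the microRNA miR-7, had 251.6 and 251.7 CPM in knockout against 185.6 and 203.9 CPM in wild type. FGD5-AS1 had 142.5 and 142.1 CPM in knockout against 135.3 and 141.1 CPM in wild type, with groups that nearly met. LIMD1-AS1 had 191.2 and 189.0 CPM in knockout against 52.56 and 107.7 CPM in wild type, the widest wild type spread of these 4. GATA2-AS1 (divergent from GATA2, the haematopoietic transcription factor) had 83.5 to 102.7 CPM over the 4 libraries, BCAN-AS2 77.7 to 82.8, TMEM132D-AS1 49.7 to 106.7, and TP73-AS1 72.3 to 77.9. Nearest below the threshold of 1 CPM were ZNF516-AS1 (0.9898), SLC12A9-AS1 (0.990) and DHX9-AS1 (0.9973), and nearest above it EPHA1-AS1 (1.002), YWHAH-AS1 (1.04) and PPP1R14B-AS1 (1.044). The 391 genes together took 0.4417% and 0.4426% of the knockout counts, against 0.4002% and 0.3905% of the wild type counts.

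Between the genotypes 31 of the 391 genes passed the test (edgeR quasi-likelihood F test, adjusted over all 16277 genes tested). These were 20 that rose and 11 that fell in knockout. That is 7.93% of the genes, against 14.0% of all genes tested. The rises were 5.12% of the antisense-named genes, near the background of 5.17%, and the falls 2.81%, against a background of 8.79%. Without a filter on low counts 46 rose (11.8%), against 5.21% of the 36946 genes then tested. Many of the genes so added had very few counts, while all 391 had passed the filter. These shares are therefore not like for like. In that fit the median log2 fold change was 0.24 for the 391 and 0.06 for all genes. An unadjusted p under 0.05 in the same test was reached by 87 of the 391, and by 4712 of all 16277 genes tested. All 31 had both knockout libraries outside both wild type libraries. That is no added support, since the same libraries chose them. Of all genes tested 33.1% had both knockout libraries above and 34.1% had both below. The sign was the same for either wild type library alone in all 31, and in 307 of the 391. All 391 passed the filter on low counts, and 367 had a mean of at least 1 CPM in both genotypes. Another 15 reached it in knockout only and 9 in wild type only. Such genes had to differ to be taken, and among the 31 they are MSANTD2-AS1, IL6-AS1, SAMD4A-AS1 and THBS3-AS1. DESeq2 on the same samples called 12 of the 31, the rises of PRKAR1B-AS1, ZNF232-AS1, TSPEAR-AS2, KAZN-AS1 and PROSER2-AS1 and the falls of CCDC144NL-AS1, EPC1-AS1, AFAP1-AS1, IGFL2-AS1, LOXL1-AS1, ZNF710-AS1 and TMEM132D-AS1.

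**Figure D1:**
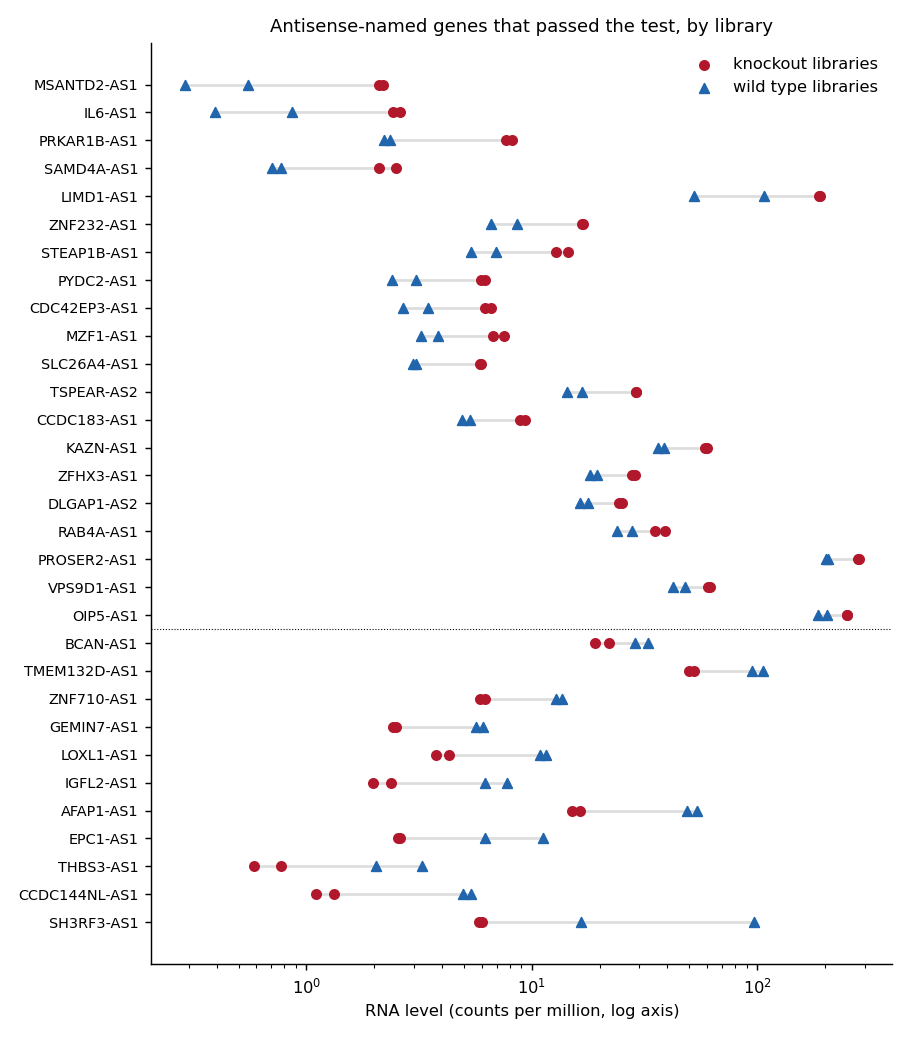
RNA level of the 31 antisense-named genes that passed the test, in CPM on a log axis. Each gene has a circle for each of 2 knockout libraries and a triangle for each of 2 wild type libraries, and a dotted line divides the 20 that rose from the 11 that fell. The wild type triangles lie far apart for SH3RF3-AS1 (97.12 and 16.5 CPM) and LIMD1-AS1 (52.56 and 107.7 CPM).

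Among the falls, AFAP1-AS1, an RNA known for its high level in several carcinomas, had the lowest adjusted p of the class. It had 15.1 and 16.5 CPM in knockout against 53.9 and 48.7 CPM in wild type. The groups were far apart and each was narrow (log2 -1.69, SE 0.11, edgeR adjusted p = 0.000203). AFAP1, which codes for an actin filament adaptor, was at 4.97 and 4.37 CPM in knockout against 5.68 and 4.64 CPM in wild type (log2 -0.13, adjusted p = 0.759). AFAP1-AS1 gave 304.4 and 376.8 counts per 100 counts of AFAP1 in knockout against 949.2 and 1051 in wild type.

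TMEM132D-AS1 was another deeply counted fall, with 52.6 and 49.7 CPM in knockout against 94.7 and 106.7 CPM in wild type (log2 -0.98, SE 0.11, edgeR adjusted p = 0.00133). TMEM132D itself, a membrane protein gene known from neural tissue, stayed at 0.39 CPM or lower in every library and was not tested. LOXL1-AS1, opposite the lysyl oxidase-like gene LOXL1, had 4.31 and 3.78 CPM in knockout against 10.9 and 11.6 CPM in wild type (log2 -1.48, SE 0.21, adjusted p = 0.00364). ZNF710-AS1 had 5.91 and 6.23 CPM against 13.7 and 12.8 (log2 -1.12, SE 0.18, adjusted p = 0.00655). In these 3 genes no library of one group reached the other.

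The largest fitted fall, SH3RF3-AS1, rested on the wild type libraries least alike. It had 6.02 and 5.86 CPM in knockout against 97.12 and 16.5 CPM in wild type. Its log2 fold change was -3.22 (SE 0.86, edgeR adjusted p = 0.0448), and -3.99 against wild type replicate 1 alone and -1.50 against replicate 2 alone. The call was lost without either knockout library. CCDC144NL-AS1 had 1.11 and 1.33 CPM in knockout against 5.39 and 4.95 in wild type (log2 -2.07, SE 0.31). THBS3-AS1 had 0.77 and 0.59 CPM against 3.27 and 2.04 (log2 -1.94, SE 0.49), while THBS3, a thrombospondin of the extracellular matrix, was at 6.63 and 7.40 CPM against 6.74 and 6.92 (log2 0.04). The THBS3-AS1 call was lost without knockout replicate 2. IGFL2-AS1 had 2.38 and 1.97 CPM against 7.80 and 6.21 (log2 -1.68), and GEMIN7-AS1, opposite a subunit gene of the SMN complex, 2.43 and 2.50 against 5.68 and 6.05 (log2 -1.25). BCAN-AS1 had 22.1 and 19.0 CPM against 32.9 and 28.8 (log2 -0.58). The edgeR adjusted p values of these last 5 genes were 0.00458, 0.0361, 0.00577, 0.0175 and 0.0209.

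EPC1-AS1, whose start window is shown above, had 2.60 and 2.56 CPM in knockout against 11.3 and 6.21 CPM in wild type. Both knockout libraries lay under both wild type libraries (log2 -1.74, SE 0.34, edgeR adjusted p = 0.0150). EPC1, a scaffold subunit of a histone acetyltransferase complex, was at 52.1 and 55.4 CPM in knockout against 50.1 and 48.0 CPM in wild type (log2 0.14, SE 0.091, adjusted p = 0.372). Footprints of EPC1 were at log2 0.23 (SE 0.31, adjusted p = 0.723). The antisense gene gave 4.99 and 4.62 counts per 100 of EPC1 in knockout against 22.5 and 12.9 in wild type.

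ZNF232-AS1, the other divergent gene that passed, went the other way. It had 16.9 and 16.8 CPM in knockout against 8.57 and 6.60 CPM in wild type (log2 1.16, SE 0.19, edgeR adjusted p = 0.00615). ZNF232, a zinc finger protein gene, had 9.73 and 8.41 CPM against 7.12 and 4.40, with a log2 value of 0.67 (SE 0.26) that did not pass (adjusted p = 0.129). Its libraries did not overlap either, and ZNF232-AS1 gave 173.3 and 199.4 counts per 100 of ZNF232 in knockout against 120.3 and 150.0 in wild type.

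Among the rises PRKAR1B-AS1 had the lowest adjusted p. It had 8.18 and 7.67 CPM in knockout against 2.21 and 2.36 CPM in wild type, from 148 and 144 counts against 23 and 30. Its log2 fold change was 1.79 (SE 0.24, edgeR adjusted p = 0.00303). The largest fitted rises came from few wild type counts. MSANTD2-AS1 had 38 and 41 counts in knockout against 3 and 7 in wild type (log2 2.30, SE 0.54), IL6-AS1 44 and 49 against 9 and 5 (log2 2.04, SE 0.49), and SAMD4A-AS1 38 and 47 against 8 and 9 (log2 1.64, SE 0.43). Against single wild type libraries, replicate 1 and then 2, MSANTD2-AS1 was at 2.91 and 1.92 and IL6-AS1 at 1.57 and 2.64. IL6-AS1 and SAMD4A-AS1 lost their calls without knockout replicate 2. IL6, the cytokine gene opposite IL6-AS1, had 6.63 and 7.83 CPM in knockout against 5.20 and 4.72 CPM in wild type, at log2 0.55 (adjusted p = 0.129).

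LIMD1-AS1 was the most deeply counted rise of over 1 on the log2 scale, from 546 and 1371 counts in wild type to 3459 and 3550 in knockout. Its fold change was 1.23 (SE 0.31, edgeR adjusted p = 0.0363), and 1.89 against wild type replicate 1 and 0.79 against replicate 2. LIMD1, a LIM domain scaffold gene, had 78.5 and 79.9 CPM in knockout against 89.8 and 86.7 CPM in wild type (log2 -0.15, adjusted p = 0.212). LIMD1-AS1 gave 243.6 and 236.7 counts per 100 of LIMD1 in knockout against 58.5 and 124.3 in wild type. STEAP1B-AS1 (log2 1.14, adjusted p = 0.0107), PYDC2-AS1 (1.14, 0.0268), CDC42EP3-AS1 (1.04, 0.0343), MZF1-AS1 (1.03, 0.0238), SLC26A4-AS1 (0.97, 0.0336) and TSPEAR-AS2 (0.92, 0.00465) rose as well. TSPEAR-AS2 had 29.1 and 29.2 CPM in knockout against 16.8 and 14.3 CPM in wild type. MZF1-AS1 had 7.57 and 6.76 CPM against 3.85 and 3.22, while MZF1, a myeloid zinc finger gene, was at 30.7 and 32.1 CPM against 33.9 and 26.7 (log2 0.06).

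Smaller rises were seen in genes of many reads. PROSER2-AS1 rose by 0.46 (SE 0.078, edgeR adjusted p = 0.00796) and OIP5-AS1 by 0.37 (SE 0.097, adjusted p = 0.0422). KAZN-AS1 had 58.8 and 59.8 CPM in knockout against 38.8 and 36.5 CPM in wild type (log2 0.66, SE 0.095, adjusted p = 0.00414). VPS9D1-AS1 had 62.0 and 60.3 CPM against 47.9 and 42.2 (log2 0.45, adjusted p = 0.0211), and RAB4A-AS1 35.1 and 39.1 against 23.9 and 27.8 (log2 0.52, adjusted p = 0.0423). ZFHX3-AS1 (0.59), DLGAP1-AS2 (0.53) and CCDC183-AS1 (0.83) also rose. Calls were lost for RAB4A-AS1 and CCDC183-AS1 without knockout replicate 2 and for CDC42EP3-AS1 and DLGAP1-AS2 without replicate 1. Of the well-known genes of the class FGD5-AS1 was at 0.04 (adjusted p = 0.768), GATA2-AS1 at -0.16 (0.224), TP73-AS1 at -0.04 (0.754), MCM3AP-AS1 at 0.09 (0.694), TMPO-AS1 at 0.03 (0.902), GABPB1-AS1 at 0.14 (0.426), MAPKAPK5-AS1 at 0.26 (0.287), THAP9-AS1 at 0.19 (0.423) and ZEB1-AS1 at 0.32 (0.169), by edgeR. TTN-AS1 was at 0.40 (0.0656). None of these 10 passed, while OIP5-AS1 and LOXL1-AS1, from the same list of genes known from the literature, did. PRKCQ-AS1 (0.19), PCED1B-AS1 (-0.06), KDM4A-AS1 (0.25) and SLC25A25-AS1 (-0.29) of that list did not pass either.

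**Figure D2:**
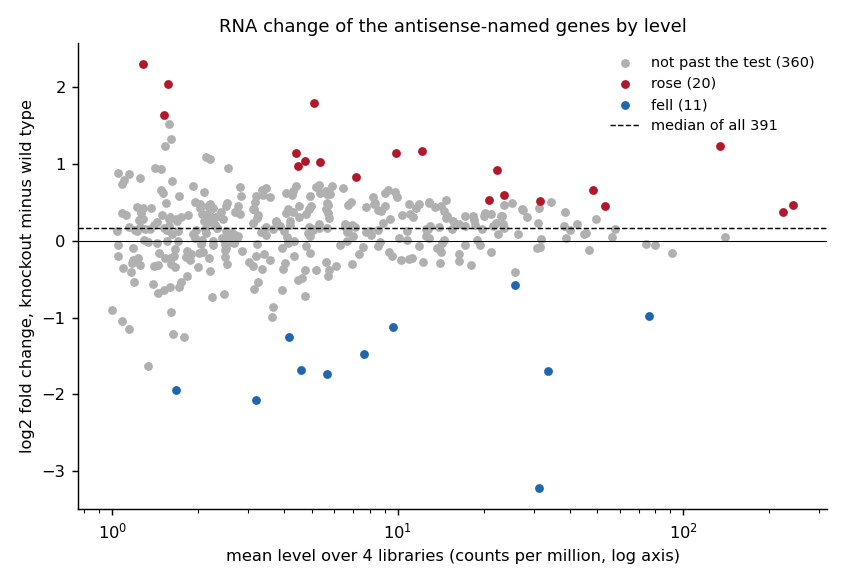
Log2 fold change, knockout minus wild type, of the 391 antisense-named genes (vertical axis) against their mean level over 4 libraries in CPM (log axis). Coloured points are the 20 rises and 11 falls, and the dashed line is the median of 0.16.

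As a class the antisense-named genes lay slightly above 0. Their median log2 fold change was 0.16, with 259 of 391 above 0, while the median of all tested genes was 0.00. It was 0.18 against wild type replicate 1 alone and 0.16 against replicate 2 alone, and 0.16 over the 367 genes at 1 CPM in both genotypes. Both knockout libraries lay above both wild type libraries for 182 genes (46.5%, against a background of 33.1%) and below them for 83 (21.2%, background 34.1%). In 58 of the 391 the wild type libraries themselves differed by over 1.5 times. The class was not tested as a set.

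A like median was found in other long non-coding classes. It was 0.24 for 204 genes with symbols ending in -DT (divergent transcripts) at 1 CPM or more, of which 6 rose and 0 fell by edgeR. For 214 LINC genes it was 0.17, with 15 rises and 11 falls. For 572 other genes that RefSeq classes as long non-coding RNA it was 0.18, with 38 rises and 23 falls. The shares that passed were less alike, at 2.94% of -DT, 12.15% of LINC and 10.66% of other long non-coding genes. They were 7.93% of the 391 and 14.0% of all genes tested. Protein-coding genes at 1 CPM or more had a median of -0.01, and 17.6% of their 11534 genes passed. The 81 tested antisense-named genes under 1 CPM had a median of 0.08, with 1 rise. Since the scaling sets the median of all genes near 0, these values are relative to other genes of the same libraries.

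The medians were also read by level. Antisense-named genes under 5 CPM had a median of 0.14 (224 genes, 6 rose and 4 fell), those from 5 to 20 CPM 0.19 (115 genes, 5 rose and 3 fell), and those at 20 CPM or more 0.22 (52 genes, 9 rose and 4 fell). Protein-coding genes in the same bands had medians of -0.23, -0.06 and 0.02. The share that passed was 4.46% of antisense-named and 12.6% of protein-coding genes in the lowest band, 6.96% and 15.5% in the middle band, and 25.0% and 19.2% in the highest.

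**Figure D3:**
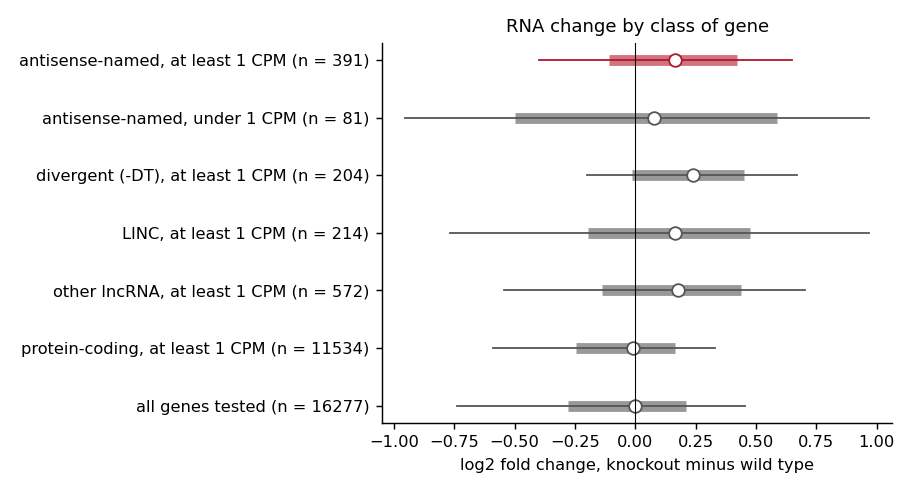
Log2 fold change, knockout minus wild type, by class of gene. Open circles are medians, thick bars run from the 25th to the 75th percentile and thin lines from the 10th to the 90th. The median of the 391 antisense-named genes is 0.16, next to 0.24 for -DT genes and -0.01 for protein-coding genes at 1 CPM or more.

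Each antisense gene was then set beside its sense gene. No source used here says whether counting used strand. Where the 2 genes overlap, reads of one cannot be told apart from reads of the other. A sense symbol was found in the table for 385 genes (381 sense genes), and 323 sense genes were tested. Of these 27 rose and 27 fell, or 16.7%, against the background of 14.0% over all genes. Among protein-coding genes alone 16.7% passed as well (713 rose and 1331 fell of 12238), and 17.6% of those at 1 CPM or more. In 325 tested pairs the antisense change was above the sense change in 215, by a median of 0.18. The 2 changes had the same sign in 186 pairs. Pearson's r across the 325 pairs was 0.29, as a description only, since both genes of a pair were counted in the same libraries. The antisense gene alone passed in 19 pairs and the sense gene alone in 50. A difference between the 2 genes of a pair was not itself tested.

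**Figure D4:**
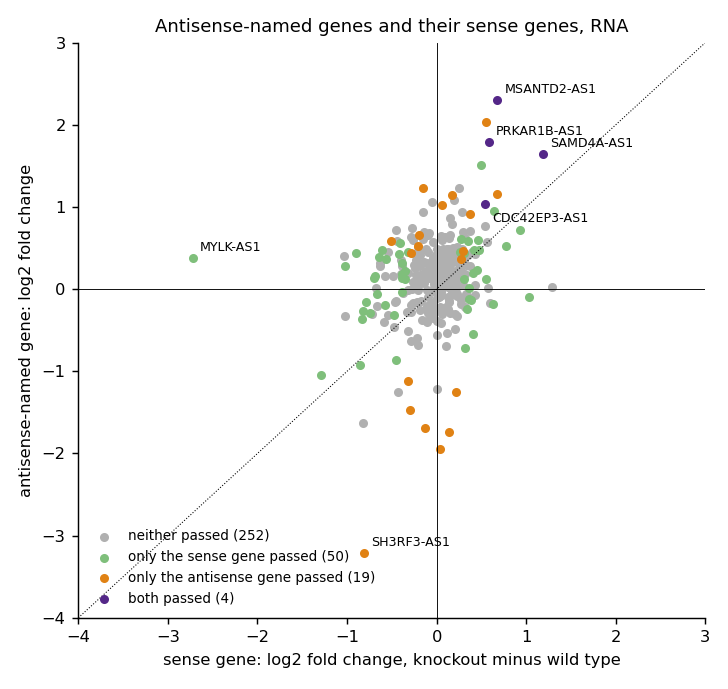
Log2 fold change, knockout minus wild type, of the sense gene (horizontal axis) and of the antisense-named gene (vertical axis) in 325 pairs, with the line of equal change dotted. Purple points are the 4 pairs in which both genes passed, orange the 19 in which the antisense gene alone did, and green the 50 in which the sense gene alone did.

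Both genes of a pair passed in 4 pairs, and all 4 were rises of both. These 4 were among 23 antisense genes that passed and had a tested sense gene. Of all tested sense genes 16.7% passed, so 4 of 23 is near that share and shows no excess of joint calls. With DESeq2 both genes kept their calls in the PRKAR1B pair alone. SAMD4A-AS1, CDC42EP3-AS1, CDC42EP3 and MSANTD2 lost theirs, and MSANTD2-AS1 had no adjusted p. PRKAR1B, the gene of a regulatory subunit of protein kinase A, had 63.2 and 62.9 CPM in knockout against 43.3 and 41.0 CPM in wild type (log2 0.58, SE 0.091, edgeR adjusted p = 0.00570). SAMD4A, which codes for a Smaug-type RNA-binding repressor, had 13.9 and 13.4 CPM against 5.87 and 6.13 (log2 1.18, SE 0.18, adjusted p = 0.00523). CDC42EP3, a CDC42 effector gene, had 19.6 and 20.2 CPM against 13.4 and 14.0 (log2 0.54, adjusted p = 0.0470), and lost its call without either knockout library. MSANTD2 had 12.6 and 10.8 CPM against 7.22 and 7.39 (log2 0.68, adjusted p = 0.0440), and lost its call without knockout replicate 1. The antisense values, 1.79, 1.64, 1.04 and 2.30, were above the sense values in each pair. PRKAR1B-AS1 gave 12.9 and 12.2 counts per 100 of PRKAR1B in knockout and 5.11 and 5.75 in wild type, and SAMD4A-AS1 15.1 and 18.7 per 100 of SAMD4A against 13.1 and 11.5. PRKAR1B-AS1 and SAMD4A-AS1 are overlapping pairs by their RefSeq start windows.

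Counts of the antisense gene per 100 counts of the sense gene cancel library size and gene length when libraries are compared. This ratio could be formed in 309 pairs with at least 20 sense counts in every library. Both knockout ratios lay above both wild type ratios in 137 pairs and below them in 58, a split not compared with other pairs of genes. The median ratio was 10.07 and 10.6 in knockout against 9.25 and 9.23 in wild type.

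In several pairs the sense gene fell while the antisense value lay near or above 0. PXN, the gene of the focal adhesion adaptor paxillin, had 81.2 and 80.5 CPM in knockout against 160.3 and 142.2 CPM in wild type (log2 -0.90, SE 0.079, edgeR adjusted p = 0.000591). PXN-AS1 had 16.4 and 14.7 CPM against 12.0 and 10.9, at log2 0.44 (SE 0.16, adjusted p = 0.106). PXN-AS1 thus gave 20.2 and 18.3 counts per 100 of PXN in knockout and 7.51 and 7.68 in wild type. CD63, a tetraspanin of endosomes and platelets, was at log2 -0.64 (adjusted p = 0.00204) and CD63-AS1 at 0.39 (0.281), with a start 85 bases away. BSG, the gene of the membrane glycoprotein basigin, was at -0.41 (0.0164) and the divergent BSG-AS1 at 0.56 (0.0939). GP6, the collagen receptor of platelets, was at -0.56 (0.0131, not called by DESeq2) and GP6-AS1 at 0.36 (0.335). MYLK, the myosin light chain kinase gene, had 0.50 and 0.37 CPM in knockout against 3.08 and 2.75 CPM in wild type (log2 -2.72, adjusted p = 0.00881), while MYLK-AS1 had 2.71 and 2.72 against 2.50 and 1.73 (0.38, adjusted p = 0.523). VIM, the gene of the intermediate filament vimentin, was at -0.66 (adjusted p = 0.00487) and VIM-AS1 at -0.06 (0.835).

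Other pairs had like values. SOCS2, a suppressor of cytokine signalling, had 441.0 and 439.5 CPM in knockout against 257.5 and 258.7 CPM in wild type (log2 0.77, edgeR adjusted p = 0.00138), and SOCS2-AS1 15.0 and 20.0 against 11.6 and 12.7 (log2 0.53, adjusted p = 0.0673). NR2F2, the nuclear receptor gene that codes for COUP-TFII, was at 0.93 (adjusted p = 0.000525) and NR2F2-AS1 at 0.72 (0.0893). NR2F2-AS1 gave 2.59 and 2.69 counts per 100 of NR2F2 in knockout against 3.36 and 2.75 in wild type, which nearly meet. LIFR, a cytokine receptor gene, was at -1.29 (adjusted p = 0.00268) beside LIFR-AS1 at -1.05 (0.254), and ID2, an inhibitor of helix-loop-helix transcription factors, at -0.86 (0.0243, not called by DESeq2) beside ID2-AS1 at -0.92 (0.198). LIFR-AS1 and ID2-AS1 had at most 28 counts in a library and did not pass.

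The arrangement of a pair was read from RefSeq start sites. In 91 divergent pairs 1 antisense gene rose (1.1%) and 1 fell (1.1%), with a median log2 fold change of 0.18. In 165 overlapping pairs 12 rose (7.27%) and 4 fell (2.42%), with a median of 0.19. Of all genes tested 5.17% rose and 8.79% fell. Of the 121 genes without a start window on one side 6 rose and 6 fell (4.96% each), with a median of 0.09. The sense genes had medians of 0.02 in divergent and 0.04 in overlapping pairs, and Pearson's r between the 2 genes was 0.36 over 90 divergent and 0.30 over 140 overlapping pairs, again as a description. Overlapping pairs include some with close starts, such as CAPN1-AS1 (40 bases), RAB4A-AS1 (43 bases, which rose) and NNT-AS1 (50 bases). The 2 arrangements therefore do not divide shared promoters from separate ones. Differences between the arrangements were not tested.

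The 5 antisense genes that lie between NAT10 and the short-arm tip of chromosome 11 had negative values, and 0 of them passed by edgeR. NAV2-AS2 was at -1.25 (SE 0.44, adjusted p = 0.103), BBOX1-AS1 at -0.37, TMEM9B-AS1 at -0.36, SBF2-AS1 at -0.29 and ZBED5-AS1 at -0.17. The sense genes TMEM9B (log2 -0.83, adjusted p = 0.0266) and SBF2 (-0.75, adjusted p = 0.00575) fell, the first not called by DESeq2. SBF2-AS1 gave 18.0 and 17.6 counts per 100 of SBF2 in knockout against 11.9 and 13.9 in wild type. BBOX1 was at 0 counts in every library.

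Footprints were then read for the sense genes, since ribosome profiling covers coding genes. Of 257 sense genes tested 4 rose and 7 fell, or 4.28%, against a background of 5.34% (1.47% higher and 3.87% lower in knockout). Their median log2 fold change was 0.09, against 0.00 for all genes. PXN footprints had 69.0 and 86.9 CPM in knockout against 163.1 and 178.9 CPM in wild type (log2 -1.19, SE 0.19, edgeR adjusted p = 0.00358). BHLHE40, a transcription factor gene, was at -1.10 (SE 0.14, adjusted p = 0.00138) in footprints and -0.79 in RNA, with BHLHE40-AS1 at -0.15 (adjusted p = 0.827). BSG footprints were at -0.85 (SE 0.14, adjusted p = 0.00541). These 3 calls held when any one footprint library was left out. PIK3CD (-1.01), the gene of a phosphoinositide kinase of blood cells, IER3 (-1.01), GP6 (-0.93) and CD63 (-0.86) fell too, but each lost its call without at least 1 library.

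The rises were SOCS2 (log2 0.89, edgeR adjusted p = 0.0178), NR2F2 (0.84, 0.0142), YWHAH (0.69, 0.0252), a 14-3-3 protein gene, and KTN1 (1.38, 0.0350), the gene of the endoplasmic reticulum protein kinectin. Each lost its call without at least 1 library: SOCS2 without wild type replicate 2, NR2F2 without wild type replicate 1, YWHAH without knockout replicate 2 or either wild type library, and KTN1 without knockout replicate 2 or wild type replicate 1. KTN1 RNA was at -0.19 (adjusted p = 0.230), beside the divergent KTN1-AS1 at 0.28 (0.383). KTN1 footprints had 36.6 and 57.9 CPM in knockout against 13.9 and 20.9 CPM in wild type. DESeq2 called 4 of the 11 in footprints, PXN, BHLHE40, BSG and SOCS2. None of the 11 sense genes called in footprints by edgeR had an antisense gene that passed. Only 7.93% of the 391 antisense-named genes passed at all, so 0 among 11 is near that share and shows no separation.

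The acRIP-seq peak lists place enriched stretches on transcripts, per genotype and antibody, with replicates pooled, so they carry no replicate error. The wild type antibody list had a peak on 155 of the 391 genes (39.6%, against 53.2% of all tested genes), and the wild type IgG list on 162 (41.4%, against 54.3%). The knockout antibody list had one on 283 (72.4%, against 70.7%), and the knockout IgG list on 273 (69.8%, against 68.2%). The knockout lists were longer, with 80709 antibody and 77342 IgG regions over all transcripts against 45290 and 45426 in wild type, so a share that is larger in knockout does not show more ac4C. Both wild type lists had a peak on 151 of the antisense-named genes. Of 331 wild type antibody regions on antisense-named genes 303 (91.5%) overlapped an IgG region by at least 1 base, and of 996 in knockout 831 (83.4%) did. Every list had a peak on 115 of the 391 genes, and no list on 70. These overlaps and counts were not formed over all tested genes, so they cannot be read as particular to antisense-named genes.

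**Figure D5:**
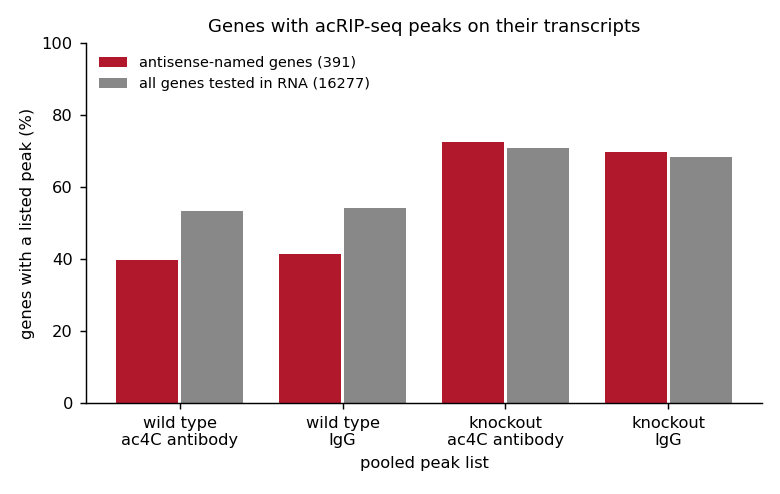
Share of genes with at least 1 acRIP-seq peak on a transcript (percent, vertical axis) in each pooled peak list, for the 391 antisense-named genes and for all 16277 genes tested in RNA. The IgG list covers more antisense-named genes than the antibody list in wild type (41.4% and 39.6%) and fewer in knockout (69.8% and 72.4%).

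Peak folds over input, as the authors' lists give them, were alike in both lists of a genotype. Their median over antisense-named genes was 3.25 for the antibody and 3.22 for IgG in wild type, and 5.74 and 6.12 in knockout. Only TRAM2-AS1, ZFHX3-AS1, EXOC3-AS1 and DNAAF3-AS1 had a wild type antibody peak with no wild type IgG peak, against 11 genes with the reverse. Their folds were low, at 2.54, 1.73, 1.70 and 1.58. No antisense-named gene had antibody peaks in both genotypes and IgG peaks in neither. These classes too were counted for the antisense-named genes alone, with no share over all tested genes to set beside them. ZFHX3-AS1, which rose in RNA, had a top antibody fold of 1.73 in wild type and 23.0 in knockout, where its top IgG fold was higher, at 34.0. TMEM132D-AS1, which fell, had a top fold of 38.3 with the antibody and 38.4 with IgG in wild type.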

How the data were processed

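The authors deposited a whole-number count of reads for each gene and library, taken after duplicate reads were dropped, per the file headers. Tools listed in the submitters' processing notes, with neither role nor version, are featureCounts, STAR, cutadapt, Trimmomatic, SAMtools, Bowtie2, MACS2, bedtools, ChIPseeker and DESeq2, on GRCh38.p13. Per the labels' protocols, total RNA went into NEBNext Ultra libraries. No source used here says whether counting used strand. Each deposited peak list gives, per peak, a fold over input and a −log10 q value, in the column order of MACS2, with both replicates merged. Regions with the same transcript, start and end were counted once.

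Of 60660 RNA-seq rows 44 copies on the Y pseudoautosomal region were left out, and of 20419 Ribo-seq rows 18. A symbol was found in the name table for 60419 of 60616 RNA-seq genes. The test was that of edgeR 4.0.16 under R 4.3.3 (TMM, filterByExpr, quasi-likelihood F test, Benjamini-Hochberg adjusted p under 0.05 over all genes tested). Fold changes are log2, as knockout over wild type. Replicates were set against counting noise by a chi-square over genes of 20 or more summed counts. Per degree of freedom it was 1.03 in the knockout RNA-seq pair, 12.5 in the wild type pair, and 2.38 (knockout) and 2.56 (wild type) in Ribo-seq. After the knockout pair was summed, the RNA residual degrees of freedom were 1, with a biological coefficient of variation of 9.12%, with the lone knockout sample assumed to vary like wild type. The footprint fit (2 against 2) had 2 and 12.0%. The fits were tested on simulated data. A sense gene is the symbol without its -AS ending.

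The genes, marker lists and comparison classes were chosen with earlier results of these data known. Named genes were up to 12 largest rises and falls past the test, the 8 with most reads, called pairs, genes next to the 1 CPM threshold, those on the tip side of NAT10, those with antibody but no IgG peaks in wild type, and 20 antisense genes of the literature. Other rises and other pairs were named after their values were seen. Alternatives were RLE scaling, DESeq2 1.42.0, no filter, 4 libraries kept apart, a replicate block, each library left out, other level thresholds, a −log10 q of at least 5 and a 50% overlap.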

Additional observations from a re-analysis of the deposited data

How the results depend on the processing

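The direction of each of the 31 called antisense-named genes was the same under all alternatives that gave it a value. All 31 kept their calls with RLE scaling, with the 4 RNA-seq libraries kept apart, with the replicate block and with no filter. DESeq2 kept 12, left 18 above the threshold and gave 1 no adjusted p. Counts of rises and falls, 20 and 11 above, were 5 and 7 with DESeq2 (1.28% and 1.79% of the 391, against 1.76% and 4.64% of all genes tested), and 68 and 25 with 4 libraries kept apart (17.4% and 6.39%, against 15.1% and 19.0%). Without a filter there were 46 rises and 14 falls (11.8% and 3.58%, against 5.21% and 4.30%). The latter shares are over a set with many genes of very few counts, so they are not like for like. Sense genes, 27 and 27 above, gave 12 and 15 with DESeq2, 73 and 74 with 4 libraries, and 57 rises without a filter. Over all genes tested these fits gave 287 and 755 of 16277, 2423 and 3053 of 16040, and 1925 rises of 36946. Sense footprints, 4 and 7 above, gave 1 and 3 with DESeq2 and 8 and 14 without a filter. Footprints of all genes tested gave 33 and 145 of 8887, and 314 and 575 of 13666. Leaving out one knockout RNA-seq library gave 17 to 21 rises and 9 to 11 falls of antisense-named genes, and 25 to 27 of each for sense genes. Without replicate 1, 5.37% of the 391 rose and 2.81% fell, against 4.84% and 8.15% of all genes tested. Without replicate 2 the shares were 4.35% and 2.30%, against 4.61% and 8.14%. Leaving out one Ribo-seq library gave 2 to 8 rises and 4 to 11 falls of sense footprints. In the same fits all genes tested gave 55 to 252 rises and 209 to 464 falls. Without a wild type RNA-seq library the fit has no residual degrees of freedom, so only fold changes are given. The median log2 fold change of the 391 genes ran from 0.15 to 0.18 over these fits, except without a filter, where it was 0.24 and that of all genes 0.06. The cause of these differences was not tested.

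Same-numbered libraries share only a number in the labels. The correlation of their deviations from the group means was -0.03 in RNA-seq (13231 genes) and 0.29 in Ribo-seq (6382 genes). With the replicate block 60 antisense-named genes rose (15.3%, against 13.4% of all genes tested) and 20 fell (5.12%, against 17.6%). In RNA 65 sense genes rose and 67 fell, while the block moved all RNA calls from 2271 to 4983. In footprints 27 sense genes rose and 20 fell, beside 693 and 901 of all 8887 genes tested, and the block moved all calls from 475 to 1594.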

Other observations

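Sense genes with more than 1 antisense gene in the class were BCAN, DLGAP1, MNX1 and PTOV1. BCAN-AS1 fell by 0.58 on the log2 scale, while BCAN-AS2, with 78.2 and 77.7 CPM in knockout against 80.0 and 82.8 CPM in wild type, was at -0.06 (edgeR adjusted p = 0.667). DLGAP1-AS2 rose by 0.53 and DLGAP1-AS1 was at 0.46 (adjusted p = 0.213). MNX1-AS1 and MNX1-AS2 were at -0.26 and 0.18, and PTOV1-AS1 and PTOV1-AS2 at 0.45 and -0.14, none past the test. A difference within these sets was not tested.

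Antisense genes of the HOX clusters, which hold the homeobox transcription factors of body axis patterning, have no single sense symbol. HOXA-AS2 had 5.64 and 5.06 CPM in knockout against 7.51 and 6.05 CPM in wild type (log2 -0.33, edgeR adjusted p = 0.373). HOXB-AS1 was at 0.66 (adjusted p = 0.225), HOXC-AS1 at -0.53 (0.436) and HOXC-AS2 at -0.64 (0.378). HOXB-AS3, CD27-AS1 and HMGA2-AS1 were listed but lay under the threshold, with means of 0.301, 0.334 and 0.040 CPM.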
